A study of Mus musculus with 6 samples.

Results

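The genes described here build the folding and disposal machinery of the endoplasmic reticulum (ER). They are 48 genes chosen by symbol: ER chaperones, enzymes of disulfide exchange, the sensors of the unfolded protein response (UPR), the factors of ER-associated degradation (ERAD) and the protein channel into the ER. All 48 were found among the 46983 genes of the count table. RNA was sequenced from mouse leukemia cells, with 3 libraries of C57BL/6J Alox5-/- and 3 libraries of C57BL/6J WT cells, all untreated. In both genotypes the cells started as a bone marrow fraction sorted for Sca-1 and c-Kit and depleted of lineage markers, carried the MLL-AF9 fusion oncogene from a retrovirus, and were transplanted into irradiated C57BL/6J mice, per the submitters' design text. Alox5 encodes 5-lipoxygenase, which starts leukotriene synthesis. The labels give 1 cell line name for each genotype and do not name the animals behind the replicates. A difference between the genotypes therefore cannot be told apart from a difference between these lines, and p-values measure only the spread between libraries.

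Secreted and membrane proteins enter the ER through the Sec61 channel, receive sugars and disulfide bonds there, and fold with the help of chaperones led by BiP, the product of Hspa5. When unfolded proteins build up, 3 membrane sensors respond: ATF6, a transcription factor precursor cut in the Golgi; IRE1 (gene Ern1), which splices Xbp1 mRNA; and PERK (gene Eif2ak3), a kinase that slows translation and favours ATF4. Proteins that fail to fold are drawn back through the membrane by the HRD1 ubiquitin ligase and the ATPase VCP and are degraded by the proteasome. Myeloid precursors make large amounts of granule proteins in this compartment.

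The libraries held 28985597 to 38695948 counts in genes. Alox5 itself stood at 65.6, 62.1 and 64.9 CPM in Alox5-/- libraries and 102, 106 and 106 CPM in WT libraries, where CPM is a gene's count relative to the library's total, scaled with TMM factors. The Alox5-/- libraries were below all WT libraries but far above 0, and the count covers the whole gene, so this checks the genotype labels only in part. Alox5-/- replicate 2 stood farther from its group than any other library, with a chi-square per degree of freedom over genes of 9.06 and 10.2 against the other Alox5-/- libraries, while the other pairs within a group had 2.18 to 5.09. Kit, the receptor used in the sort, averaged 136 ± 2.73 CPM in Alox5-/- and 159.7 ± 3.09 CPM in WT libraries. Ly6a, the Sca-1 gene, was low in both genotypes, with a mean of 0.763 ± 0.158 CPM in Alox5-/- libraries against 1.06 ± 0.169 CPM in WT libraries (SD, n = 3 each).

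Most ER folding genes were lower in Alox5-/- cells by small amounts, while 2 of the 3 sensors and a few ERAD genes were higher. Of the 47 members that passed the expression filter, 30 fell and 8 rose (edgeR quasi-likelihood test, Benjamini-Hochberg adjusted p under 0.05 over all tested genes), and 9 were not called. Together 80.9% of the tested members were called, beside 53.8% of all 13705 tested genes. The fallers were 30 of 47, where 27.0% of all tested genes fell, and the risers 8 of 47, where 26.8% of all tested genes rose. The median log2 fold change (Alox5-/- over WT) was -0.22 over the tested members and 0.00 over all tested genes. Changes of at least 1.5-fold were called for 3 members (Herpud1, Atf6 and Stc2), beside 11.5% of all tested genes. When the test asked for more than a 1.2-fold change, 13 members were lower and 5 higher, and 17.9% of all tested genes were called. Without Alox5-/- replicate 2 the counts were 29 lower and 8 higher.

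All 38 called members had no overlap between the libraries of the groups, as did Os9 and Ufd1l among those not called. That makes 32 lower and 8 higher members without overlap; over all tested genes 60.0% had none, 30.2% lower and 29.7% higher. In bulk RNA, fewer cells of a type and less RNA per cell cannot be told apart. The 48 genes together took 1.70 ± 0.0159% of gene counts in Alox5-/- and 1.97 ± 0.0309% in WT libraries (SD, n = 3 each). Chaperones and co-chaperones made up 0.354 ± 0.00462% in Alox5-/- and 0.463 ± 0.014% in WT libraries. The sensors with Xbp1 made up 0.0831 ± 0.0018% in Alox5-/- and 0.0694 ± 0.000982% in WT libraries, the reverse order. ERAD genes also ran in this order, at 0.211 ± 0.000505% in Alox5-/- and 0.205 ± 0.000791% in WT libraries. Every other role had its lower mean share in Alox5-/- libraries.

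**Figure D1:**
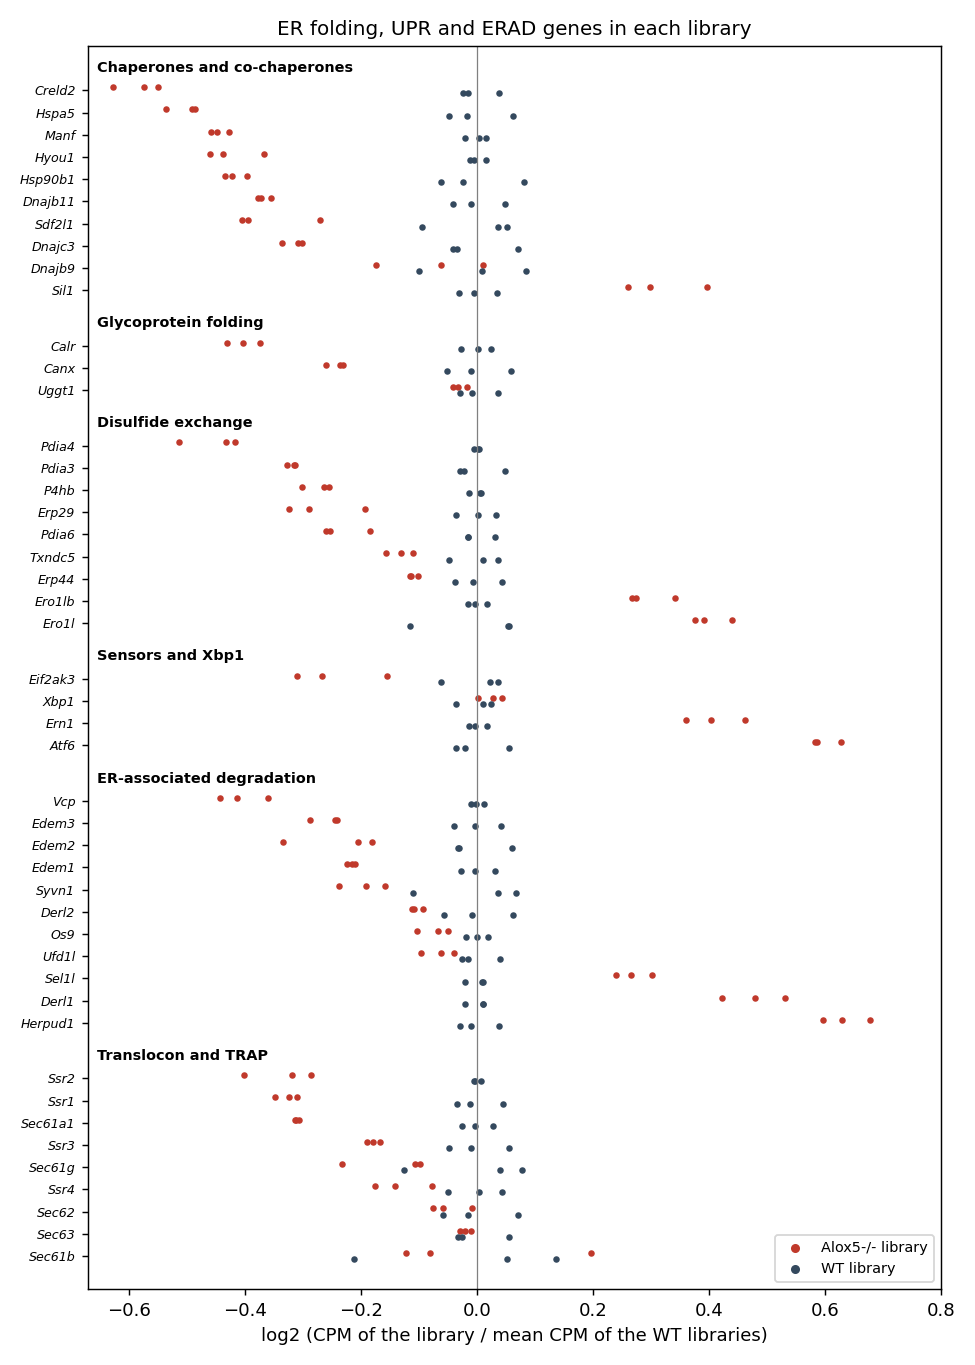
Each row is 1 of 46 tested member genes, grouped by role; points give log2 of the CPM of each library over the WT mean, red for Alox5-/- and dark blue for WT. Stc2, at a log2 fold change of -3.38, lies off this axis and is left out. Most red points lie left of all dark points of their row, while Sil1, Ero1l, Ero1lb, Ern1, Atf6, Sel1l, Derl1 and Herpud1 have all red points to the right.

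Among 10 chaperones and co-chaperones, 8 fell, 1 rose and 1 was not called; their median was -0.39 on the log2 scale. Hspa5 (chromosome 2 from 34771970 to 34777547, plus strand in mm10), the BiP gene, was 1061, 1058 and 1024 CPM in Alox5-/- libraries and 1469, 1551 and 1437 CPM in WT libraries (edgeR log2 fold change -0.50 with an SE of 0.03, adjusted p = 1.53e-08). SE is the standard error of the log2 fold change. All 3 Alox5-/- libraries lay within 1024 to 1061 CPM, below the lowest WT library. Hsp90b1, which encodes the ER chaperone GRP94, was 1352, 1328 and 1316 CPM in Alox5-/- libraries and 1750.4, 1881 and 1705 CPM in WT libraries (edgeR log2 fold change -0.42 with an SE of 0.04, adjusted p = 2.23e-07). Here too the groups did not overlap, with Alox5-/- lower.

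Among the other genes of this group, most of them partners of BiP, 6 fell and 1 rose. Hyou1, the large Hsp70-like exchange factor of BiP, fell by 0.42 on the log2 scale. Dnajb11 and Dnajc3, J-domain proteins that hand clients to BiP, fell by 0.37 and 0.31, and Sdf2l1, a partner of Dnajb11, fell by 0.36. Manf and Creld2, small secretory proteins induced by ER stress, fell by 0.44 and 0.58. Sil1, the other exchange factor of BiP, moved the opposite way and rose by 0.32 (edgeR adjusted p = 0.000113). Dnajb9, a J-domain protein that favours ERAD and represses IRE1, was not called. Its groups overlapped, and the 95% interval of its log2 fold change was -0.21 to 0.07.

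Of the 3 genes of glycoprotein folding, 2 fell. Calr (chromosome 8 from 84841850 to 84846934, minus strand), the gene of the lumenal lectin chaperone calreticulin, was 2676, 2623 and 2575 CPM in Alox5-/- libraries and 3404, 3529 and 3474 CPM in WT libraries (edgeR log2 fold change -0.40 with an SE of 0.03, adjusted p = 5.4e-08). Canx, the gene of its membrane-bound relative calnexin, was 907, 910.5 and 892 CPM in Alox5-/- libraries and 1061, 1114 and 1031 CPM in WT libraries (edgeR log2 fold change -0.24 with an SE of 0.03, adjusted p = 2.16e-05). Both genes had every Alox5-/- library below every WT library. Uggt1, which marks misfolded glycoproteins for another round of folding, was not called, with a 95% interval of -0.10 to 0.04 for its log2 fold change.

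All 9 genes of disulfide exchange were called, 7 lower and 2 higher. P4hb, the gene of protein disulfide isomerase, was 1429.9, 1422 and 1385 CPM in Alox5-/- libraries and 1713, 1715 and 1691 CPM in WT libraries (edgeR log2 fold change -0.27 with an SE of 0.03, adjusted p = 2.13e-06). Pdia4, another isomerase, was 312, 292 and 309 CPM in Alox5-/- libraries and 417, 417 and 415 CPM in WT libraries (edgeR log2 fold change -0.45 with an SE of 0.03, adjusted p = 2.39e-08). In both, the Alox5-/- values stayed below the lowest WT library. Pdia3, the isomerase that works with calreticulin and calnexin, fell by 0.32 on the log2 scale, Pdia6 by 0.23, Erp29 by 0.27, Txndc5 by 0.13 and Erp44 by 0.11. Erp44 missed the threshold under upper-quartile scaling (adjusted p = 0.0536 by edgeR), with total-count scaling (0.114) and without Alox5-/- replicate 3 (0.0542). The 2 genes that rose were the oxidases that recharge these isomerases. Ero1l rose by 0.40 (edgeR adjusted p = 1.26e-06) and Ero1lb by 0.30 (edgeR adjusted p = 0.000756).

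The promoters of these genes were read for the ER stress response element (ERSE), since many members fell together. The ERSE, which ATF6 and the CCAAT-binding factor NF-Y occupy, is read here as CCAAT, 9 free bases (N) and CCACG; it was first defined in genes of this family, so its presence here is no independent evidence. RefSeq start sites of the build GRCm38.p6 were matched for 40 of 48 members, with a window of 250 bases before to 50 after the start, read on both strands. The ERSE was present in 10 of the 40 (25.0%) and in 37 of all 27025 genes with such a window (0.137%). Of the 9 tested members with an ERSE, 8 fell and 1 rose (Ero1lb). Derl3, the tenth, was not tested. Among all tested members with a window, with or without an ERSE, 25 fell, 5 rose and 9 were not called. Over all tested genes 27.0% fell. A link between the ERSE and the direction of change was not tested. The 11 sites in these promoters are shown from RefSeq GRCm38.p6, 5′ to 3′ in the direction of the motif, with the fixed bases in capitals and the 9 free bases in lower case.
Hspa5 (chr2:34772025-34772043, plus strand): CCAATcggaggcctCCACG
Hsp90b1 (chr10:86705638-86705656, minus strand): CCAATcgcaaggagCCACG
Hsp90b1 (chr10:86705533-86705551, plus strand): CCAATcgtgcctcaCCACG
Calr (chr8:84847075-84847093, plus strand): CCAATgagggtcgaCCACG
Canx (chr11:50325800-50325818, minus strand): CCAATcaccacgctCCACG
Creld2 (chr15:88819520-88819538, minus strand): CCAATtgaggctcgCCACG
Dnajc3 (chr14:118937827-118937845, plus strand): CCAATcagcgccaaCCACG
Pdia6 (chr12:17266491-17266509, plus strand): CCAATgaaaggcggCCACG
Syvn1 (chr19:6046532-6046550, plus strand): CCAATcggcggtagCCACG
Ero1lb (chr13:12565682-12565700, minus strand): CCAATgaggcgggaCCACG
Derl3 (chr10:75893242-75893260, minus strand): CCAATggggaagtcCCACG

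Among the sites, that of Syvn1 lay nearest to the start, at -44 to -26, and the farther site of Hsp90b1 lay at -212 to -194. The Hspa5 site lay at -65 to -47. A shorter form, ERSE-II (ATTGG, any base, CCACG), was found in 2 members, Herpud1 and Dnajb11, and in 12 of the 27025 genes (0.044%). The Dnajb11 match lay after the start. These 2 genes moved in opposite directions. The UPRE (TGACGTGG), bound by XBP1 and ATF6, was found in Txndc5 and Vcp, against 193 genes in all (0.714%). The amino acid response element searched (TGATGCAA), of the kind that ATF4 binds, was found in 1 member, Herpud1, and in 279 genes in all (1.03%). No sites of different motifs overlapped in the members. A letter match is not a measured binding site.

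For comparison, the 170 bases before the start are given for Creld2, which fell by 0.58 on the log2 scale, and for Herpud1, which rose by 0.64. Both were picked after their values were seen. Ero1lb, with an ERSE, rose and Dnajb11, with an ERSE-II, fell, and a link between element and direction was not tested. Capitals mark the ERSE in Creld2, here on the opposite strand (chr15:88819476-88819645, plus strand), and in Herpud1 first the amino acid response element on the opposite strand and then the ERSE-II (chr8:94386259-94386428, plus strand).
Creld2: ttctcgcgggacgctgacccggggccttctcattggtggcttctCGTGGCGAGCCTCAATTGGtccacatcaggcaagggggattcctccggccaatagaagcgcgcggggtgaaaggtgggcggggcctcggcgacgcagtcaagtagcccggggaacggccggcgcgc
Herpud1: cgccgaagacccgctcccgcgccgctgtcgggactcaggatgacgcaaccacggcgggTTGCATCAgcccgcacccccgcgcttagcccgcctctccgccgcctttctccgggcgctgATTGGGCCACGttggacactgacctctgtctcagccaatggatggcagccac

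The sensors did not move as a group. Atf6 (chromosome 1 from 170704674 to 170867771, minus strand) was 227, 227 and 234 CPM in Alox5-/- libraries and 157, 149 and 147 CPM in WT libraries (edgeR log2 fold change 0.60 with an SE of 0.03, adjusted p = 2.1e-09), higher in every Alox5-/- library than in any WT library. Ern1, the IRE1 gene, was 173, 161 and 166 CPM in Alox5-/- libraries and 124, 127 and 125 CPM in WT libraries (edgeR log2 fold change 0.41 with an SE of 0.03, adjusted p = 1.34e-07). It was also higher without overlap. Eif2ak3, the PERK gene, was 61.4, 55.2 and 56.8 CPM in Alox5-/- libraries and 65.5, 70.1 and 69.4 CPM in WT libraries (edgeR log2 fold change -0.24 with an SE of 0.05, adjusted p = 0.00037), so that its Alox5-/- libraries all lay below the WT libraries.

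Xbp1, whose mRNA IRE1 splices, was 370.1, 359.8 and 366 CPM in Alox5-/- libraries and 366, 362 and 350.3 CPM in WT libraries. The groups overlapped and the gene was not called (edgeR adjusted p = 0.529; 95% interval of the log2 fold change -0.04 to 0.09). Counts per gene do not separate spliced from unspliced Xbp1. Members grouped by the branch that is best known to induce them gave the following counts. Of 11 genes assigned to ATF6, 8 fell, 2 rose (Herpud1 and Sel1l) and Xbp1 was not called; the median was -0.42 on the log2 scale. Of 5 genes assigned to XBP1, 4 fell (Dnajc3, Dnajb11, Edem1 and Pdia6) and Dnajb9 was not called, with a median of -0.23.

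**Figure D2:**
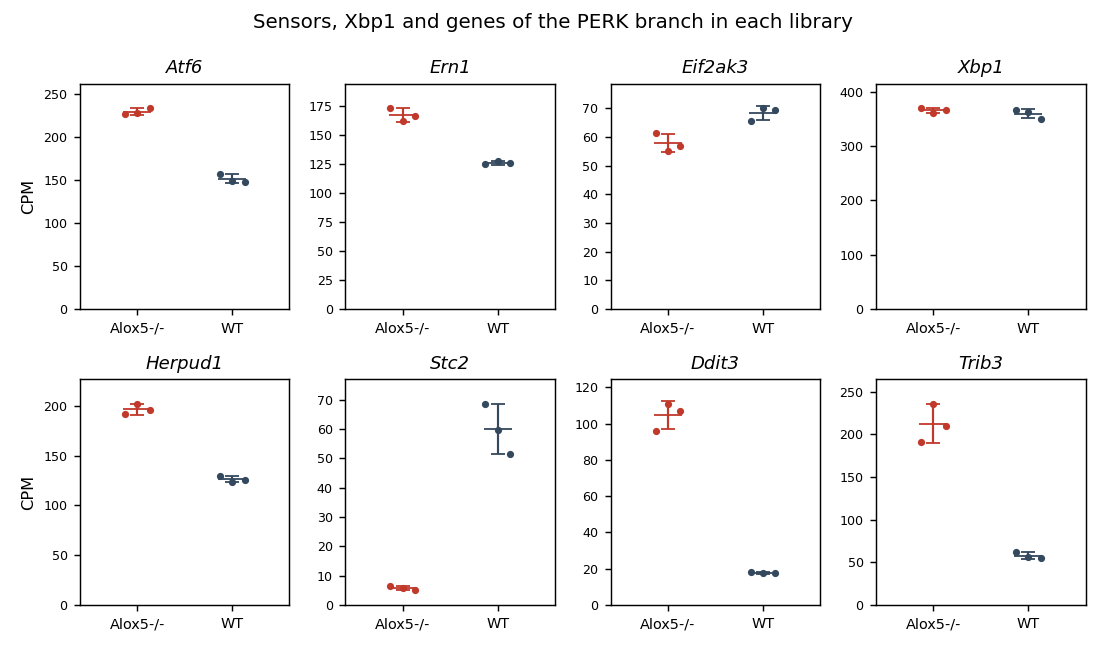
CPM in each library (points) with the mean and SD of 3 libraries (bars) for the 3 sensors, Xbp1, Herpud1, Stc2, Ddit3 and Trib3, each panel with its own axis from 0. Atf6, Ern1, Herpud1, Ddit3 and Trib3 were higher in every Alox5-/- library, Eif2ak3 and Stc2 were lower, and Xbp1 overlapped.

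ERAD genes split, with 3 higher, 6 lower and 2 not called among 11 tested of 12. The share that rose was near that of all tested genes, of which 26.8% rose and 27.0% fell. Herpud1 (chromosome 8 from 94386438 to 94395377, plus strand), which helps assemble the HRD1 complex, was 191, 202 and 196 CPM in Alox5-/- libraries and 129.9, 124 and 126 CPM in WT libraries (edgeR log2 fold change 0.64 with an SE of 0.03, adjusted p = 1.21e-09), the steepest rise among the members. Sel1l, the adaptor that holds HRD1 in the membrane, was 297, 292 and 305 CPM in Alox5-/- libraries and 249, 249 and 244 CPM in WT libraries (edgeR log2 fold change 0.27 with an SE of 0.03, adjusted p = 3.51e-06). Derl1, a derlin of the same membrane complexes, rose by 0.48 (edgeR adjusted p = 2.27e-08). The ligase gene itself, Syvn1, fell by 0.20 (edgeR adjusted p = 0.00305). Its lowest WT library, at 52.7 CPM, stood close above the highest Alox5-/- library, at 51.0 CPM.

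Downstream, Vcp, the ATPase that extracts ubiquitinated proteins, was 222, 210.0 and 214 CPM in Alox5-/- libraries and 283, 288 and 285 CPM in WT libraries (edgeR log2 fold change -0.40 with an SE of 0.03, adjusted p = 6.98e-08), lower in all 3 Alox5-/- libraries. Its cofactor Ufd1l was not called, with a 95% interval of -0.15 to 0.02 for the log2 fold change. The mannose-trimming genes Edem1, Edem2 and Edem3 fell by 0.22, 0.24 and 0.26. Os9, a lectin that brings trimmed glycoproteins to HRD1, missed the threshold (log2 fold change -0.07, edgeR adjusted p = 0.0534) and passed it with limma-voom (adjusted p = 0.0448) and without WT replicate 2 (edgeR adjusted p = 0.0305). Derl2 fell by 0.10 (edgeR adjusted p = 0.0426), a call lost under most other settings, among them DESeq2 (adjusted p = 0.103). Derl3, a derlin of secretory cells, had 5 to 6 counts in Alox5-/- and 7 to 17 counts in WT libraries and did not pass the filter.

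**Figure D3:**
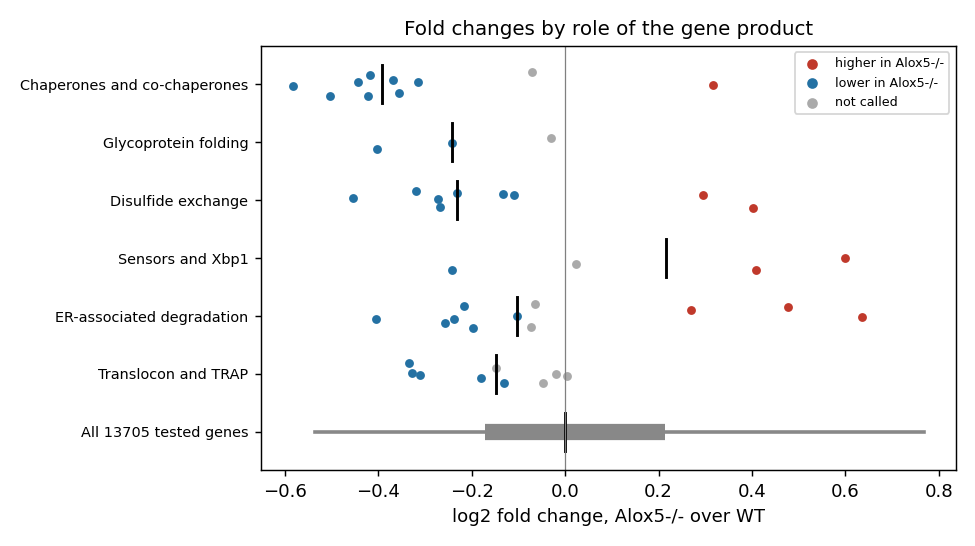
Log2 fold changes of 46 tested members (points) by role, coloured by call, with the median of each role as a black bar; Stc2 is off the axis. The lowest row gives all tested genes, with the 5th to 95th percentile as a line, the quartiles as a box and the median as a bar. Chaperones have the lowest median (-0.39), sensors with Xbp1 the highest (0.22).

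At the entry to the ER, 5 of 9 genes fell, none rose and 4 were not called. The called share, 55.6%, was near the 53.8% of all tested genes, of which 27.0% fell and 26.8% rose. Sec61a1, the pore-forming subunit, was 625, 626 and 628 CPM in Alox5-/- libraries and 792, 763 and 775 CPM in WT libraries (edgeR log2 fold change -0.31 with an SE of 0.03, adjusted p = 4.51e-07), with the Alox5-/- libraries close together and below WT. The TRAP complex, which assists the channel, fell in all 4 of its genes: Ssr1 by 0.33, Ssr2 by 0.33, Ssr3 by 0.18 and Ssr4 by 0.13 on the log2 scale. Ssr4 was 149.6, 146 and 156 CPM in Alox5-/- libraries and 165, 159 and 169.9 CPM in WT libraries. Its groups came close without overlapping, and with total-count scaling its call was lost (edgeR adjusted p = 0.0623). The small channel subunits Sec61b and Sec61g and the translocation factors Sec62 and Sec63 had overlapping groups, with 95% intervals of the log2 fold change of -0.17 to 0.18, -0.33 to 0.03, -0.13 to 0.03 and -0.09 to 0.05.

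Stc2 (chromosome 11 from 31357307 to 31370074, minus strand) set itself apart from the other members. It encodes stanniocalcin 2, a secreted glycoprotein that PERK and ATF4 signalling is known to induce. Stc2 was 6.32, 5.78 and 5.11 CPM in Alox5-/- libraries and 68.7, 59.8 and 51.5 CPM in WT libraries, 10.4-fold lower in Alox5-/- cells (edgeR log2 fold change -3.38 with an SE of 0.11, adjusted p = 3.69e-12). The highest Alox5-/- library had less than the lowest WT library by a wide margin. The next steepest fall among the members was that of Creld2, at -0.58.

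Levels were compared between genes as CPM per kilobase of merged exons. Calr was the most abundant member, at 911 ± 17.6 in Alox5-/- and 1205 ± 21.7 in WT libraries, followed by P4hb, at 494 ± 8.40 in Alox5-/- and 596 ± 4.64 in WT libraries, and Hsp90b1, at 330.3 ± 4.54 in Alox5-/- and 441 ± 22.6 in WT libraries (CPM per kilobase, SD, n = 3 each). Of the 14 tested members with at least 100 CPM per kilobase in WT, a limit chosen after the values were seen, 12 fell, none rose, and Os9 and Xbp1 were not called. Of the 33 below it, 18 fell, 8 rose and 7 were not called. The 8 genes that rose ranged from 2.05 CPM per kilobase (Ero1lb) to 68.9 (Ero1l) in WT. The genes that rose were 2 sensors, 2 oxidases, 3 ERAD genes and Sil1, and none of them was among the most abundant folding factors.

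**Figure D4:**
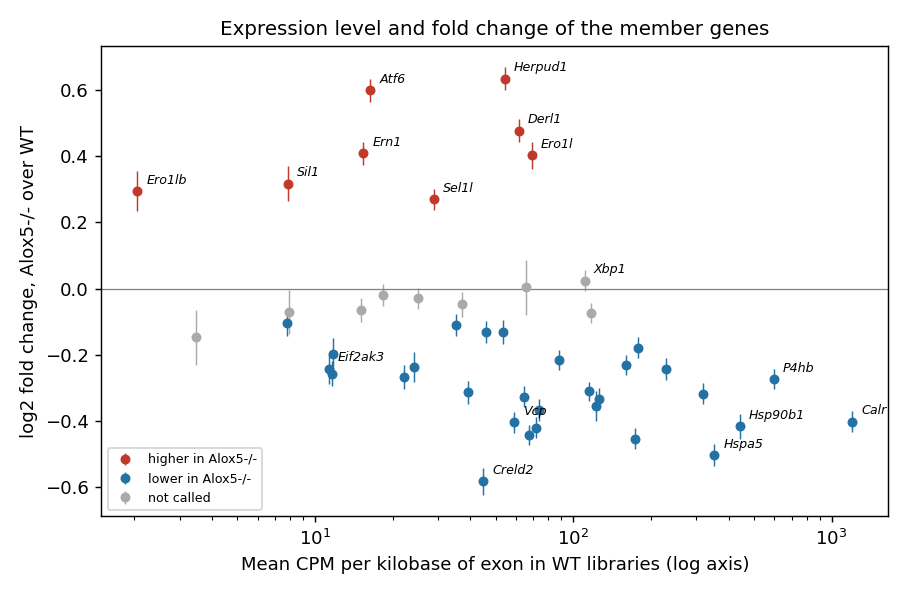
Mean CPM per kilobase in WT (log axis) against the log2 fold change, Alox5-/- over WT, for 46 tested members without Stc2; bars are 1 SE and colours give the call. The points above 0 that were called lie left of 100 CPM per kilobase, and all members beyond 150 CPM per kilobase lie below 0.

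Of 141 further genes of the pathway, 136 were tested, 36 rose and 51 fell (64.0% called, beside 53.8% of all tested genes); their median was -0.04 on the log2 scale. The list named for the PERK branch had the highest median of these lists, 0.61: of 13 genes, 10 rose, 1 fell and 2 were not called. These lists were chosen with earlier results of these data known, so the ranking is no independent evidence. The name of the PERK list does not say which kinase acted, and PERK activity was not measured. Eif2ak3, the PERK gene itself, fell by 0.24 on the log2 scale. Ddit3, the gene of the stress factor CHOP, was 95.9, 111 and 107 CPM in Alox5-/- libraries and 18.1, 17.5 and 17.4 CPM in WT libraries (edgeR log2 fold change 2.57 with an SE of 0.06, adjusted p = 1.09e-13). Trib3, a pseudokinase induced by ATF4 and CHOP, was 191, 236 and 209.9 CPM in Alox5-/- libraries and 62.3, 56.5 and 54.6 CPM in WT libraries (edgeR log2 fold change 1.88 with an SE of 0.07, adjusted p = 1.29e-11). In both genes every Alox5-/- library exceeded every WT library, with replicate 2 the highest. Chac1, a glutathione-degrading enzyme, and Nupr1, a stress-induced chromatin protein, rose by 1.24 and 1.84. Atf4 itself rose by 0.13 (edgeR adjusted p = 0.00208). Stc2 and the ERO1 gene Ero1l, members known as targets of this branch, moved in opposite directions.

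Genes that process or transmit the UPR signal gave 3 higher, 4 lower and 4 not called of 11 tested. Mbtps2, the site-2 protease that releases ATF6 from the membrane, rose by 0.31, and Wfs1, an ER membrane protein, rose by 0.55. Atf6b, the paralog of Atf6, fell by 0.20, and Creb3l2, a related membrane-bound factor, by 0.15. The groups of Atf6b overlapped. The 7 calls of this list came to 4 without Alox5-/- replicate 3. Further folding factors were mixed, with 11 higher, 9 lower and 11 not called of 31 tested. Of the UPR signal list 63.6% were called and of this folding list 64.5%, beside 53.8% of all tested genes (26.8% higher, 27.0% lower). Mcfd2, a cargo receptor subunit for coagulation factors, rose by 0.70 and the thioredoxin-like Txndc12 by 0.47, while Txndc11 fell by 0.61 and Mogs, the first glucosidase of glycan trimming, by 0.33.

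Further ERAD genes divided much as all tested genes did, with 8 higher, 8 lower and 13 not called of 29 (55.2% called). Over all tested genes 53.8% were called, 26.8% higher and 27.0% lower. Vimp, a VCP anchor, and Nploc4, the partner of Ufd1l, fell by 0.40 and 0.33. Herpud2, the paralog of Herpud1, and the ligase gene March6 rose by 0.43 and 0.29. In delivery to the membrane, 11 of 27 tested genes were lower, 1 higher and 15 not called. That was 44.4% called, a smaller share than over all tested genes, with a median of -0.05 on the log2 scale. Srpr, the receptor for the signal recognition particle, fell by 0.47, and Srp68 and Srp72, subunits of that particle, by 0.26 and 0.23. Wrb, which receives tail-anchored proteins, fell by 0.44. Of 12 genes of the oligosaccharyltransferase, which attaches N-glycans, 9 fell, 1 rose and 2 were not called (83.3% called, beside 53.8% of all tested genes). Dad1 fell by 0.31 and the catalytic subunit genes Stt3a and Stt3b by 0.23 and 0.21, and Ost4, a small subunit, by 0.27. Of 13 genes of the COPII coat, which carries cargo out of the ER, 9 fell, 2 rose and 2 were not called (84.6% called). Sec24d, a cargo adaptor, fell by 0.78 and its relative Sec24c by 0.38. Sec16a, which organises ER exit sites, fell by 0.25.

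Cell types rich in ER were looked for by their markers. Of 12 plasma and B cell genes, 10 averaged under 1 CPM, among them Sdc1, Jchain and Mzb1, and the summed level of the list was 51.3 to 57.7 CPM in Alox5-/- and 49.6 to 53.2 CPM in WT libraries, nearly all from Ighm, which was not called. Of its 3 tested genes Irf4 alone was called, and it rose. Of 10 granulocyte genes 9 were tested, 6 fell and 2 rose, with sums of 3757 to 3882 CPM in Alox5-/- and 3431 to 3734 CPM in WT libraries. Elane was among those that fell, although its groups overlapped. Mpo, a granule enzyme folded in the ER, fell by 1.59 on the log2 scale, and Ctsg, another granule enzyme, rose by 0.28; both were picked after their values were seen, and Ctsg, which averaged 2712 ± 26.8 CPM in Alox5-/- and 2229 ± 45.5 CPM in WT libraries (SD, n = 3 each), makes up most of the sum. Mast cell and basophil genes summed to 61.0 to 66.6 CPM in Alox5-/- and 129 to 139 CPM in WT libraries, with Fcer1a, Tpsb2 and Prss34 at 0 in all 6 libraries. Most of that difference came from Hdc, which averaged 35.1 ± 2.51 CPM in Alox5-/- and 96.0 ± 4.62 CPM in WT libraries. Of the 4 tested genes of the list Hdc and Cpa3 fell, Ms4a2 rose by 0.37 and Mcpt8 was not called. Macrophage genes summed to 36.4 to 40.2 CPM in Alox5-/- and 46.4 to 49.4 CPM in WT libraries, with Marco, Timd4 and Cd5l at 0. Adgre1, which fell and averaged 32.9 ± 1.40 CPM in Alox5-/- and 43.1 ± 1.93 CPM in WT libraries, carried that difference, while the other tested genes of the list, Csf1r and Mrc1, were not called and their groups overlapped. T cell genes summed to 17.8 to 18.6 CPM in Alox5-/- and 13.3 to 15.1 CPM in WT libraries, nearly all from Lck, which rose, with Cd3e, Cd3g and Cd2 at 0. Erythroid genes summed to 0.807 to 1.03 CPM in Alox5-/- and 0.976 to 1.27 CPM in WT libraries, and stromal and endothelial genes to 12.5 to 14.9 CPM in Alox5-/- and 10.7 to 12.5 CPM in WT libraries, mostly from Pdgfrb, which was called higher although its groups overlapped. The part of these cell types in the lower folding genes was not tested. All 7 myeloid and leukemia markers were present in every library. Hoxa9, Cd34 and Ptprc rose, Itgam, Spi1 and Cebpa fell, and Meis1 was not called. The sum of the 7 was 1339 to 1397 CPM in Alox5-/- and 1258 to 1289 CPM in WT libraries. Spi1 and Cebpa were called although their groups overlapped.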

How the data were processed

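Raw counts of reads per gene were deposited for 6 libraries in 1 table. The submitters' processing notes name HTSeq, DESeq2 and the build mm10. Not given in the sources used here are the aligner, the annotation release and the strandedness of counting. RNA was poly-A selected and amplified with a SMARTer kit, per the labels. The 5 summary rows that name no gene were left out, so that 60.0 to 60.9% of all reads entered; reads aligned to several places made up 24.4 to 24.8%. Of the symbols, 27 had become dates and were restored by gene ID. Without a known strand setting, overlapping genes cannot be told apart.

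Counts were fitted over all genes in R 4.3.3 with edgeR 4.0.16 (TMM, default expression filter, quasi-likelihood F-test, no covariate, Benjamini-Hochberg over 13705 genes). The fit was checked only on counts simulated with the spread that edgeR itself estimated. Those counts held no difference between lines and no outlying library, so the check does not cover either. Alternatives used DESeq2 1.42.0, limma 3.58.1, other scalings and filters, left-out libraries and a replicate block. A count of 0 allows up to 3 counts, or 0.0786 to 0.103 CPM by library on the TMM scale. These floors cover counting error only. The intervals of the log2 fold changes come from the edgeR fit and also cover the spread between libraries. Like the p-values, they do not cover a difference between the cell lines. Positions and exon lengths came from GENCODE vM21, in which 98.95% of gene IDs were found, and promoter sequences from RefSeq (GRCm38.p6), both of the mm10 build. Values per library are given for called members past 1.5-fold, the sensors, Xbp1 and 10 further members, and up to 4 called genes of each pathway list with the smallest p are named. The members and lists were chosen with earlier results of these data known.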

Additional observations from a re-analysis of the deposited data

How the results depend on the processing

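Except under a minimum fold change, in each alternative of tool, scaling, filter, block or left-out library, 35 to 39 members were called (36 to 38 with a library left out), 8 of them higher each time, and 35 of the 38 called members kept call and direction; the exceptions were Derl2, Erp44 and Ssr4. No member reversed its direction with a call. A minimum change of 1.2-fold (edgeR glmTreat) lowered the counts, as its construction implies: to 2450 of all tested genes and to 18 members, 13 lower and 5 higher. By role this left 1 gene of glycoprotein folding, 2 of disulfide exchange, 3 of ERAD and 2 of the translocon. Also left were Hspa5, Hsp90b1, Hyou1, Dnajb11, Sdf2l1, Manf and Creld2 among the chaperones, Atf6 and Ern1 among the sensors, and Stc2. Among the further genes outside the PERK branch list, 1 of UPR signal processing, 6 of folding and 3 of ERAD were left. So were 2 of delivery to the membrane, 2 of COPII and 0 of the oligosaccharyltransferase. For the last, glmTreat had 0 genes at an unadjusted p under 0.05, DESeq2 without a minimum change called 9 and limma-voom 10. The UPR signal processing list had 7 called genes, and 4 to 6 with a library left out (4 without Alox5-/- replicate 3). As a share of all reads, the members took 1.03% in Alox5-/- and 1.19% in WT libraries.

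Replicate numbers did not pair the libraries: deviations of same-numbered libraries correlated at -0.105, -0.258 and -0.117 across genes, and no library correlated best with its own number. With the replicate block 37 members and 7029 genes were called. Total-count scaling moved the median log2 fold change of all genes to 0.04, the widest shift among the scalings tried. At this depth Derl3 could not be compared.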

Other observations

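The ERSE letters were also found outside the member genes. In tested genes with a promoter window, numbering 9760, the ERSE occurred in 7 genes that are not members, and 2 of them rose, 2 fell and 3 were not called. Alg12, chosen after its values were seen, encodes a mannosyltransferase that builds the N-glycan precursor in the ER, and had a log2 fold change of -0.16 (edgeR adjusted p = 0.0415). The other gene that fell was Zfp57, a zinc finger gene, and those that rose were Acacb, an acetyl-CoA carboxylase, and Adcy3, an adenylate cyclase. A further 20 genes with the ERSE that are not members were not tested. Of 12 PERK branch genes with a window, 3 held the amino acid response element searched (Chac1, Atf3 and Nupr1), and all 3 were higher in Alox5-/- cells, as were 7 of the 9 without it.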
